A study of Mus musculus with 6 samples.

Results

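Oxidative phosphorylation is the step of respiration in which electrons pass along the inner mitochondrial membrane and drive the making of ATP. Complex I takes electrons from NADH and complex II from succinate, ubiquinone carries them to complex III and cytochrome c to complex IV, where oxygen is reduced, and complex V, the ATP synthase, uses the proton gradient that complexes I, III and IV build. Most subunits are encoded in the nucleus and a minority in mitochondrial DNA, and neurons depend on the pathway for the ATP that ion pumping costs them. The genes described here are the nuclear ones, taken from the deposited expression table by symbol: names that begin with Nduf followed by a, b, c, s or v and a digit, Sdha to Sdhd, names that begin with Uqcr, Cox4 to Cox8 and Atp5. The rule found 84 genes among 43346 rows, after 3 rows of pseudogene symbols with 0 reads were left out, and it used no measured value.

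Brain RNA was sequenced from 3 adult males that were Kdm5c deficient and from 3 adult male littermates that were wild type. Kdm5c is an X-linked gene for a demethylase of histone H3 lysine 4. Mice of both genotypes were sons of a heterozygous deficient female on C57BL/6 and a wild-type 129 male, so all had the same mixed strain background in equal parts. The labels describe neither the allele nor the brain region taken. Total RNA went into TruSeq libraries, and each mouse gave 1 library of 20221675 to 24555412 counts. Levels are given as CPM, counts scaled so that library totals are comparable, and log2 fold changes are deficient over wild type. Adjusted p-values come from the quasi-likelihood test of edgeR, fitted to all genes, with the Benjamini-Hochberg method.

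Kdm5c RNA averaged 72.8 ± 6.75 CPM in deficient and 81.5 ± 3.43 CPM in wild-type brain (SD, n = 3 each), which is -0.16 on the log2 scale with an edgeR adjusted p of 0.196. Without a description of the allele, this level is no check of the labels. Markers of neurons were high in all 6 libraries, with summed levels of 8552 to 9367 CPM in deficient and 8396 to 8666 CPM in wild-type mice, and none of the 10 was called. Markers of cerebellum were lower in deficient mice, and deficient mouse 2 was the lowest. Their 16 genes summed to 3106, 1138 and 2546 CPM in deficient mice 1, 2 and 3. In wild-type mice 1, 2 and 3 the sum was 3425, 3581 and 3940 CPM. All 16 had a log2 fold change below 0, and none was called. Of the 16, 12 were lower without overlap, against 16.0% of all genes. Without deficient mouse 2 all 16 were still below 0, and 4 were called lower, against 324 of 15287 genes. The part of this in the results was not tested. Of the single genes called, fold changes without deficient mouse 2 are given only for Gabpb2 and Ppargc1b. In whole tissue, fewer cells of a type and less RNA per cell cannot be told apart.

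No nuclear oxidative phosphorylation gene differed between the genotypes at an adjusted p under 0.05. Of the 84 genes, 83 passed the filter on low counts and were tested, and Cox8c, the testis form of a complex IV subunit, had 0 reads in all 6 mice. None of the 83 was called higher and none lower by edgeR, where 4.93% of the 15127 genes tested were called, 371 higher and 375 lower. At an unadjusted p under 0.05 there were 3 of 83 genes, or 3.61%, against 24.9% of all genes. At an adjusted p under 0.1 there was 1, Cox7b2, against 11.8% of all genes, and in 7 of 16 other fits there was none. DESeq2 and limma-voom called none of the 83 either, at an adjusted p under 0.05. In the authors' deposited table the same 3 genes, Cox7b2, Cox7a2l and Ndufa12, had an unadjusted p under 0.05, against 2932 of 21035 genes there.

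The differences were also small. The median log2 fold change of the 83 genes was 0.0048, against 0.0012 over all genes tested, with 48 values above 0 and 35 below. Its size without sign had a median of 0.036, against 0.119 over all genes. The 95% interval of the fold change lay wholly within a 1.25-fold change either way for 71 of 83 genes, or 85.5%, against 47.4% of all genes. Much of that goes with level, since most of these genes have many reads: at a mean of 20 CPM or more the count was 69 of 70 genes, or 98.6%, against 74.7% of 7912 genes at that level. The exception among the 70 was Ndufa12. The spread among mice of a genotype was small as well, with a median SD of 0.0589 on the log2 scale against 0.102 over all genes. Much of this too goes with level: at 20 CPM or more the medians were 0.0551 for these genes and 0.0716 for all genes. In simulated data drawn from these libraries, the test recovered 14% of genes changed 1.25-fold and 58% of those changed 1.5-fold. Those shares are over all genes tested. They do not give the recovery for these 83 genes, most of which have many reads and whose median spread is smaller. The intervals, and not the absence of calls, bound what a change here could be.

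**Figure D1:**
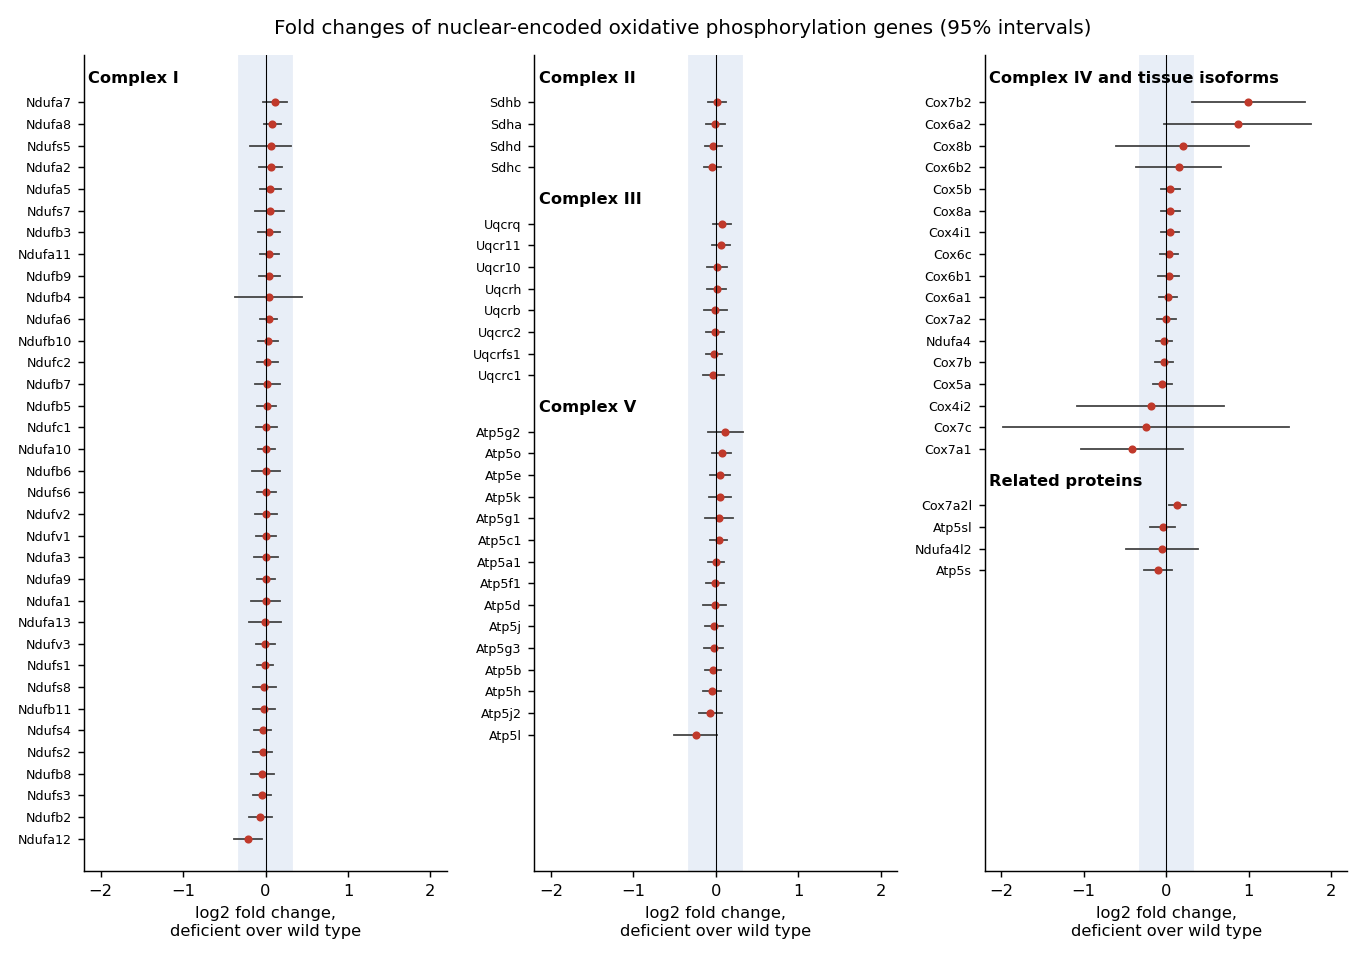
Log2 fold change, deficient over wild type, of the 83 tested nuclear oxidative phosphorylation genes by complex, with 95% intervals (lines) from edgeR's quasi-likelihood fit on 3 mice a genotype; the shaded band is a 1.25-fold change either way. Nearly all points sit close to 0 with short intervals, and 12 intervals leave the band, 6 of them of low tissue isoforms such as Cox7b2 and Cox6a2.

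**Figure D2:**
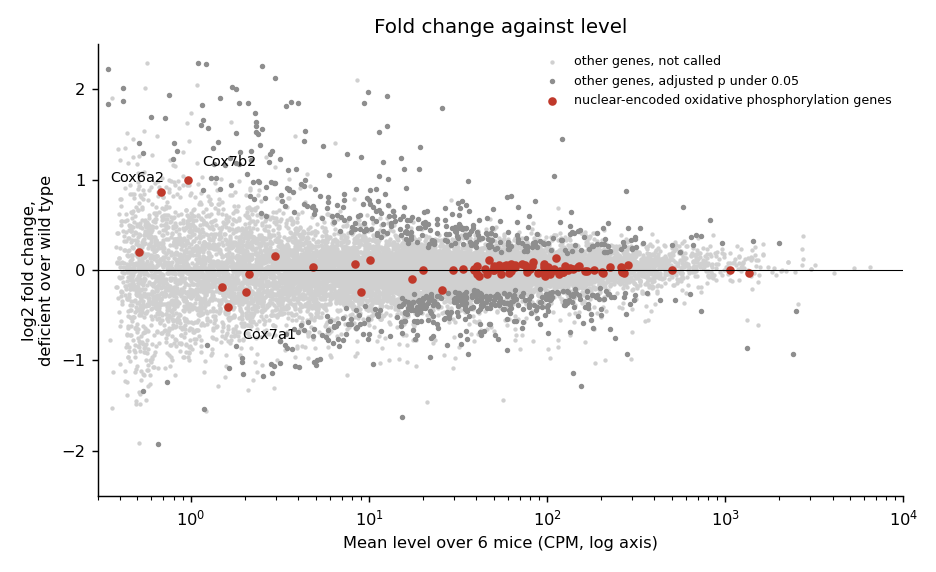
Log2 fold change, deficient over wild type, against the mean level of 6 mice (CPM, log axis) for 15127 tested genes; 11 genes lie outside the axes, none of them an oxidative phosphorylation gene. The 83 oxidative phosphorylation genes (red) lie between -0.22 and 0.13 at 20 CPM or more and spread out at lower levels, and none has an adjusted p under 0.05.

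Complex I, the NADH dehydrogenase, had 35 tested genes, and their log2 fold changes ran from -0.22 to 0.11 with a median of 0.01. Its 7 core subunits in the set, which hold the flavin and the iron-sulfur clusters, stayed within -0.04 to 0.05. Ndufv1, which binds NADH, had 194, 180 and 176 CPM in deficient mice 1, 2 and 3, against 188, 179 and 182 CPM in wild-type mice. Ndufs1, the largest core subunit, had 118, 119 and 118 CPM in deficient mice, against 120, 121 and 116 CPM in wild-type mice. The genotypes overlapped for both genes, whose log2 fold changes were 0.00 and -0.01, and for both the interval stayed inside a 1.25-fold change.

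Of the 28 accessory subunits, which surround the core, Ndufa8 and Ndufa12 had no overlap between the genotypes. Such separation was found for 5 of the 83 genes in all, or 6.02%, with Cox7b2, Cox7a2l, Ndufa8 and Atp5g2 higher and Ndufa12 lower in deficient mice, against 30.8% of all genes tested, 14.9% higher and 16.0% lower. Ndufa8 had 87.0, 88.1 and 83.2 CPM in deficient mice, against 81.4, 80.2 and 82.1 CPM in wild-type mice. Its log2 fold change was 0.08 ± 0.04 (SE; edgeR adjusted p = 0.278). Ndufa7 had 50.7, 49.9 and 46.2 CPM in deficient mice, against 48.3, 44.7 and 42.6 CPM in wild-type mice, and here the genotypes overlapped. Its log2 fold change of 0.11 ± 0.06 (SE; edgeR adjusted p = 0.303) was the highest in complex I.

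Ndufa12, on chromosome 10 at 94198720 to 94221443 (GRCm38, plus strand), had the lowest fold change of complex I. Its level was 22.7, 24.5 and 23.6 CPM in deficient mice, against 29.7, 27.4 and 25.1 CPM in wild-type mice. Every deficient mouse was below every wild-type mouse, by a narrow margin at the closest pair. The log2 fold change was -0.22 ± 0.07 (SE; edgeR adjusted p = 0.122), and the 95% interval ran from -0.39 to -0.05. Permuting the 6 mice exactly, two-sided, gave p = 0.1, the smallest that 3 against 3 mice allow. The annotated pseudogene Gm15920 carries most of the coding sequence of Ndufa12, and 53.8% of the 50-base words of its transcripts are also found in a transcript of Gm15920. Gm15920 had 0 reads in every mouse, and how reads that match both were counted is not given in the sources used here.

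Complex II, succinate dehydrogenase, also serves the citric acid cycle and has no mitochondrially encoded subunit. Its 4 genes had log2 fold changes from -0.04 to 0.02, and all 4 intervals stayed inside a 1.25-fold change. Sdha, the flavoprotein, had the highest level per kb of the complex, and it had 527, 496 and 482 CPM in deficient mice, against 521, 499 and 490 CPM in wild-type mice. Sdhb, the iron-sulfur subunit, had 132, 142 and 132 CPM in deficient mice, against 134, 135 and 131 CPM in wild-type mice. The membrane anchors Sdhc and Sdhd had log2 fold changes of -0.04 and -0.03. The genotypes overlapped for all 4 genes.

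Complex III, the cytochrome bc1 complex, had 8 genes, with log2 fold changes from -0.03 to 0.07 and all 8 intervals inside a 1.25-fold change. The Rieske iron-sulfur protein Uqcrfs1 had 123, 123 and 119 CPM in deficient mice, against 123, 125 and 122 CPM in wild-type mice. Uqcrc1, a core protein, had 282, 270 and 248 CPM in deficient mice, against 280, 267 and 271 CPM in wild-type mice. The small subunits Uqcrq and Uqcr11 had the highest values of the complex, 0.07 and 0.06 on the log2 scale, with edgeR adjusted p-values of 0.391 and 0.486. No gene of complexes II and III was free of overlap.

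Complex V, the ATP synthase, had 15 genes, with log2 fold changes from -0.24 to 0.12 and 13 intervals inside a 1.25-fold change. Atp5b, the catalytic beta subunit, had 1388, 1334 and 1314 CPM in deficient mice, against 1414, 1355 and 1367 CPM in wild-type mice. Atp5a1, the alpha subunit, had 1091, 1057 and 1032 CPM in deficient mice, against 1075, 1036 and 1062 CPM in wild-type mice. Their log2 fold changes were -0.03 and 0.00. The genotypes overlapped for both.

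The values of Atp5l and Atp5g2 were farther from 0, and both genes have close copies elsewhere in the genome. Atp5l, subunit g of the membrane part, had 8.08, 7.64 and 8.93 CPM in deficient mice, against 10.9, 9.59 and 8.66 CPM in wild-type mice, with deficient mouse 3 above wild-type mouse 3. Its log2 fold change was -0.24 ± 0.12 (SE; edgeR adjusted p = 0.234). Atp5g2 had 10.7, 10.7 and 10.3 CPM in deficient mice, against 10.2, 8.86 and 10.1 CPM in wild-type mice, a log2 fold change of 0.12 ± 0.09 (SE; edgeR adjusted p = 0.465). Of the 50-base words in their transcripts, 84.8% for Atp5l and 87.4% for Atp5g2 occur in transcripts of other genes. Atp5o, the subunit that joins the catalytic part to the stalk, had a log2 fold change of 0.07 (edgeR adjusted p = 0.400).

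Complex IV, cytochrome c oxidase, had 18 genes including 7 tissue isoforms, and its 17 tested genes spread most, from -0.41 to 0.996 on the log2 scale with a median of 0.03. The broadly expressed subunits Cox4i1, Cox6a1, Cox6b1, Cox7a2, Cox7b and Cox8a ranged from -0.03 to 0.05. Cox7c, also broadly expressed, was at -0.25 with few reads, and its values are given with its shared sequence. Cox4i1, which takes part in the control of the enzyme by ATP, had 134, 129 and 122 CPM in deficient mice, against 123, 126 and 124 CPM in wild-type mice. Cox8a had 286, 307 and 279 CPM in deficient mice, against 281, 276 and 284 CPM in wild-type mice. Ndufa4, named as a complex I gene but since assigned to complex IV, had 204, 203 and 199 CPM in deficient mice, against 208, 203 and 207 CPM in wild-type mice. All of these overlapped between the genotypes.

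The values farthest from 0 in complex IV were those of Cox7b2, Cox6a2 and Cox7a1, isoforms that other tissues use in place of the broadly expressed ones, followed by the broadly expressed Cox7c. Cox7b2, on chromosome 5 at 71442824 to 71548205 (minus strand) and known from testis, had 1.18, 1.01 and 1.70 CPM in deficient mice, against 0.769, 0.440 and 0.700 CPM in wild-type mice. Every deficient mouse was above every wild-type mouse. This is a low level, 86 reads in all in the deficient libraries and 44 in the wild-type ones, a ratio per library total of 1.99 with a 95% exact interval for counting error alone of 1.37 to 2.93. The log2 fold change was 0.996 ± 0.30 (SE), the largest of the 83, and its edgeR adjusted p was 0.0897.

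Cox6a2, the heart and skeletal muscle form, had 0.940, 0.797 and 0.921 CPM in deficient mice, against 0.810, 0.245 and 0.350 CPM in wild-type mice, with a log2 fold change of 0.87 ± 0.39 (SE; edgeR adjusted p = 0.210). Wild-type mouse 1 lay among the deficient mice. Cox7a1, also a heart and skeletal muscle form, had 1.93, 1.26 and 0.967 CPM in deficient mice, against 1.98, 2.10 and 1.44 CPM in wild-type mice, a log2 fold change of -0.41 ± 0.27 (SE; edgeR adjusted p = 0.378). Cox8b, another muscle form, had 0.752, 0.336 and 0.552 CPM in deficient mice, against 0.526, 0.440 and 0.437 CPM in wild-type mice. The 3 muscle forms did not share a direction, and none passed the test. Of 18 striated muscle markers 8 were too low to test. Of the other 10, Acta1 was called higher and Ttn lower in deficient mice, against 2.45% higher and 2.48% lower of all genes. No muscle marker was called lower with offsets for GC content and length. The same held when deficient mouse 2 or 3 or wild-type mouse 2 or 3 was left out.

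Cox4i2, the form known from lung and vascular mural cells, had 2.40, 0.713 and 1.10 CPM in deficient mice, against 1.30, 1.76 and 1.71 CPM in wild-type mice. Ndufa4l2, a relative of Ndufa4 known as a hypoxia-induced gene and from mural cells, had 2.40, 2.18 and 1.66 CPM in deficient mice, against 1.90, 2.15 and 2.41 CPM in wild-type mice. Cox6b2, the testis form of Cox6b1, had 3.57, 2.77 and 2.99 CPM in deficient mice, against 2.11, 3.82 and 2.54 CPM in wild-type mice. The genotypes overlapped for these 3 genes, and their edgeR adjusted p-values were 0.806, 0.902 and 0.715. Of 10 mural cell markers, which summed to 245, 242 and 239 CPM in deficient mice and 233, 195 and 223 CPM in wild-type mice, none was called.

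**Figure D3:**
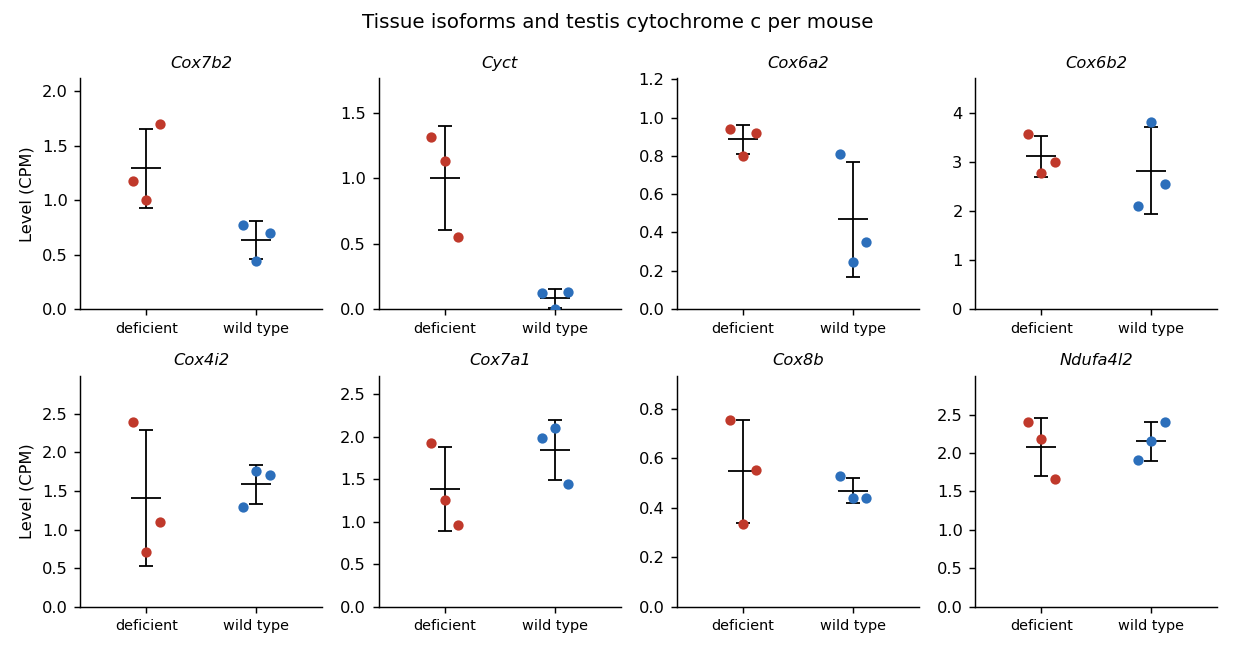
Levels (CPM) of 6 tissue isoforms, of Ndufa4l2 and of testis cytochrome c (Cyct), 1 point a mouse, with mean and SD (n = 3 a genotype); deficient on the left and wild type on the right of each panel. Cox7b2 and Cyct separate the genotypes without overlap, and the other 6 genes do not.

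As shares of their subunit, the tissue isoforms stayed minor in both genotypes. Levels were divided by the length of the longest annotated transcript, and the shares depend on that choice of length. Cox7b2 made up 1.95 ± 0.59% of Cox7b and Cox7b2 together in deficient brain and 0.938 ± 0.23% in wild-type brain (SD, n = 3 each), and by coding length 1.04 ± 0.319% in deficient and 0.498 ± 0.12% in wild-type brain. By the longest transcript, Cox6a2 held 0.309 ± 0.029% of its pair in deficient and 0.166 ± 0.11% in wild-type mice, and Cox7a1 held 1.78 ± 0.585% in deficient and 2.38 ± 0.46% in wild-type mice. Cox4i2, Cox6b2 and Cox8b were at 1.12%, 2.14% and 0.290% in deficient and at 1.32%, 1.98% and 0.254% in wild-type mice. With the higher Cox7b2 share of deficient mice, Cox7b still held over 97% of the pair in each mouse.

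The 3 genes for ATP synthase subunit c encode the same mature protein behind different import sequences. Atp5g3 held 93.0%, 93.2% and 92.9% of their summed level in deficient mice 1, 2 and 3, against 93.5%, 93.9% and 93.2% in wild-type mice. Atp5g1 held 2.65 ± 0.22% in deficient and 2.54 ± 0.02% in wild-type mice (SD, n = 3 each) by the longest transcript, and 13.4% and 13.0% by coding length, because an annotated transcript of Atp5g1 is long. The Atp5g3 share was between 82.8% and 84.3% in deficient mice and between 83.7% and 84.3% in wild-type mice by coding length, so the genotypes overlapped on both scales.

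Cox7a2l and the other genes with related names are not subunits of a single complex. Cox7a2l, also called Scaf1, is known from the joining of complexes III and IV into supercomplexes, and it lies on chromosome 17 at 83501918 to 83517330 (minus strand). It is named here because its values stood out. Its level was 119, 117 and 115 CPM in deficient mice, against 108, 103 and 109 CPM in wild-type mice, without overlap. The log2 fold change was 0.13 ± 0.05 (SE), a rise of 1.10-fold in the fitted means, with an edgeR adjusted p of 0.114. Strain C57BL/6 is known for a shorter Cox7a2l protein, and the counts do not resolve the alleles. Atp5s and Atp5sl, an ATP synthase coupling factor and a complex I assembly factor, had log2 fold changes of -0.10 and -0.04.

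Summed by complex, the genotype means differed by less than the SD of the deficient mice. Complex IV averaged 1541 ± 53.8 CPM in deficient and 1522 ± 12.1 CPM in wild-type mice (SD, n = 3 each), a difference above the wild-type SD. Complex I summed to 2649, 2589 and 2436 CPM in deficient mice 1, 2 and 3, against 2593, 2538 and 2495 CPM in wild-type mice. Complex II summed to 851, 828 and 801 CPM in deficient mice, against 852, 830 and 811 CPM in wild-type mice, and complex III to 1037, 1041 and 971 CPM in deficient mice, against 1018, 1023 and 1009 CPM in wild-type mice. Complex IV summed to 1574, 1569 and 1479 CPM in deficient mice, against 1535, 1510 and 1521 CPM in wild-type mice, and complex V to 3866, 3746 and 3654 CPM in deficient mice, against 3868, 3733 and 3758 CPM in wild-type mice. The ratios of the genotype means ran from 0.992 for complex V to 1.01 for complex IV, and the genotypes overlapped in each complex. All 83 genes together made up 0.951% to 1.02% of a deficient library and 0.976% to 1.003% of a wild-type library.

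**Figure D4:**
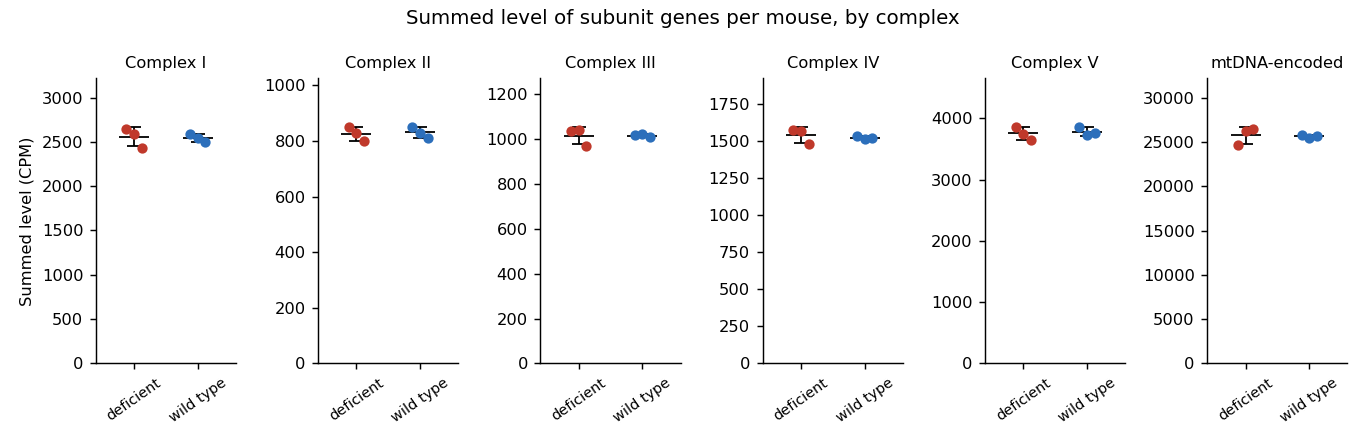
Summed level (CPM) of the nuclear subunit genes of each complex, and of the 13 mitochondrially encoded subunits, 1 point a mouse, with mean and SD (n = 3 a genotype); deficient on the left and wild type on the right. The genotypes overlap in all 6 panels, and deficient mouse 3, the rightmost red point, is the lowest of the 6 mice in each of the 5 nuclear panels.

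The genes shared shifts between single mice. Of the 70 genes at 20 CPM or more, deficient mouse 1 was the highest of the 6 mice for 31, or 44.3%, against 14.2% of all genes at that level. Deficient mouse 3 was the highest for 1 of the 70, or 1.43%, against 12.5% of all genes at that level. The mean deviation of the 70 genes from their own mean, on the log2 scale, was 0.05, 0.02 and -0.055 in deficient mice 1, 2 and 3, against 0.02, -0.01 and -0.02 in wild-type mice. Other genes with a coding length under 600 nt, of which 773 reached 20 CPM, ran differently, at 0.03, 0.04 and 0.01 in deficient mice, against -0.01, -0.05 and -0.03 in wild-type mice. These 773 genes summed to 89753 ± 2121 CPM in deficient and 85526 ± 1315 CPM in wild-type mice (SD, n = 3 each), without overlap. Like Kdm5c, 3 subunit genes lie on the X chromosome, and Ndufa1, Ndufb11 and Cox7b had log2 fold changes of 0.00, -0.02 and -0.03, with all 3 intervals inside a 1.25-fold change.

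The mitochondrially encoded subunits, which make the cores of complexes I, III, IV and V, were measured in the same libraries. None of the 13 was called. Their sum was 24717, 26240 and 26445 CPM in deficient mice, against 25859, 25515 and 25660 CPM in wild-type mice, a ratio of means of 1.005. Counts were very uneven among them: mt-Co1 had 6401, 6519 and 6678 CPM in deficient mice, against 6529, 6202 and 6450 CPM in wild-type mice, while mt-Co2, mt-Co3 and mt-Nd3 stayed under 1.3 CPM in every mouse. mt-Nd3 had 10, 9 and 7 reads in deficient mice, against 21, 18 and 14 reads in wild-type mice, a log2 fold change of -0.99 (edgeR adjusted p = 0.0876). Mitochondrial RNAs of one strand are cut from a shared precursor, and how reads along it were counted is not given in the sources used here.

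Level itself varied widely among the subunits, and part of that variation went with shared sequence. Per kb of transcript, the 73 subunit genes other than tissue isoforms ranged from 3.79 CPM per kb for Cox7c to 711 CPM per kb for Atp5b. The length is that of the annotated transcript with the longest coding sequence, and levels per kb depend on that choice. The medians were 75.1 for complex I, 94.7 for complex II, 136 for complex III, 165 for complex IV and 116 CPM per kb for complex V. Of the 83 tested genes 46 share at least one 50-base word with a transcript of another gene, and 13 share 30% of their words or more. Words were matched on either strand, so not all of the sharing is with copies. Ndufb6 shares its words with Smim27, which overlaps it on the opposite strand. Atp5o shares most with another annotated gene of the same symbol. Those 13 had a median of 45.0 CPM per kb, against 110 CPM per kb for the other 60 subunit genes. Of the 10 lowest subunit genes 5 were among the 13, namely Cox7c, Ndufb4, Ndufs5, Atp5g2 and Atp5l, which are named for this after their values were seen. Of the annotated copies with the most shared words, those of these 5 genes that are rows of the table had 0 reads in every mouse. Atp5g1 and Ndufb2 were also among the 10 lowest per kb, at 40.1 and 41.7 CPM on transcripts of 4715 and 4371 nt. The part of shared sequence and of transcript length in these levels was not tested.

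**Figure D5:**
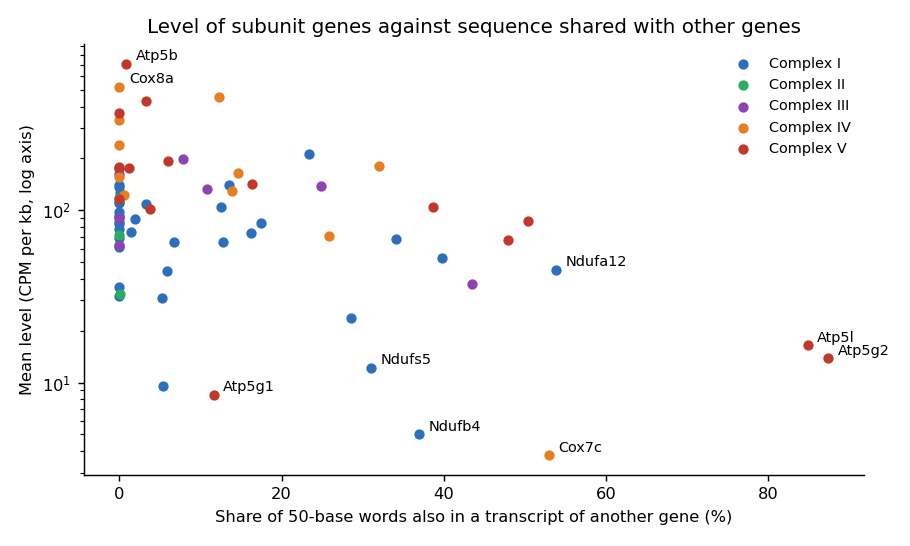
Mean level over 6 mice (CPM per kb of transcript, log axis) against the share of 50-base words that also occur in a transcript of another gene (%), 1 point for each of 73 subunit genes, coloured by complex. The genes with 30% or more shared words have a median of 45.0 CPM per kb, against 110 CPM per kb for the rest, with Cox7c lowest at 3.79.

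The coding sequence of Cox7c and the first 240 bases of that of Ndufa12 show how far the sharing goes. By its bases alone, a read inside a shared stretch does not show which gene it came from. How such reads were counted is not given in the sources used here. They are printed 5′ to 3′ on the coding strand, from the GENCODE M21 transcripts of GRCm38, and capitals mark the bases that lie in 50-base words also found in transcripts of other genes.
Cox7c: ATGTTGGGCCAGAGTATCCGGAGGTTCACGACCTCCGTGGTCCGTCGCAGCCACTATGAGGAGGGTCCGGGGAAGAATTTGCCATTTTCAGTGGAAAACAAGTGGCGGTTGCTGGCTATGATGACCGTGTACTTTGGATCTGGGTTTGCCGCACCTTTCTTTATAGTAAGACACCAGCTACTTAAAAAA
Ndufa12: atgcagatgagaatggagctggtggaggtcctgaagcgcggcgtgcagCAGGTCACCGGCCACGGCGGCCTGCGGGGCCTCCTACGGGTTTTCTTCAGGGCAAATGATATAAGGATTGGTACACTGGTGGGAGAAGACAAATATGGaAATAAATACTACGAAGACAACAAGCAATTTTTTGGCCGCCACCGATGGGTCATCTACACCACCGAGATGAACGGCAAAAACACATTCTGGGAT

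The coding sequence of Cox7c, a complex IV subunit on chromosome 13 at 86044816 to 86046904 (minus strand), is 189 nt long, and all 189 bases lie in words shared with Gm10012, Gm12338 and Gm20091. Cox7c had 87, 16 and 21 reads in deficient mice, against 113, 25 and 17 reads in wild-type mice, and its 3 copies had 0 reads in every mouse. The first mouse of each genotype was the high one, at 4.09 CPM in the deficient and 4.57 CPM in the wild-type mouse, where the other 4 mice had 0.671 to 1.22 CPM. Its log2 fold change of -0.25 carried a 95% interval of -1.98 to 1.49, the widest of the 83, so a change in this gene was not measurable here. Of the 447 coding nt of Ndufa12, 376 lie in words shared with Gm15920, or 84.1%, and 1 lower-case base inside the capitals marks where no shared word reaches.

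Few of the genes that assemble and serve the complexes passed the test. None of 17 tested assembly factors of complex I and none of 30 of complexes II to V was called, and the same held for 16 genes of mitochondrial DNA maintenance and expression and for 14 carriers and kinases of ATP, ADP, phosphate and creatine. Over all 9 lists of related genes, 2 of 149 tested genes were called higher and 3 lower, or 3.36%, against 4.93% of all genes, with 2.45% higher and 2.48% lower. The 2 called higher include Cyct, which passed the filter on low counts only through deficient mice. The lists were set up for this description with earlier results of these data known.

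Among electron carriers, Cyct had more reads in deficient mice. Cyct is the testis form of cytochrome c, on chromosome 2 at 76353942 to 76360450 (minus strand), and it had 28, 27 and 12 reads in deficient mice, against 3, 0 and 3 reads in wild-type mice. The ratio per library total was 11.4, with a 95% exact interval for counting error of 4.96 to 32.1, and the log2 fold change was 3.43 ± 0.62 (SE; edgeR adjusted p = 0.0228). With at most 3 reads in each wild-type mouse, Cyct could pass the filter on low counts only through deficient mice, so its call is no test. Cycs, the form used in somatic cells, had 26.9, 26.1 and 26.7 CPM in deficient mice, against 26.1, 24.1 and 26.9 CPM in wild-type mice, and the genotypes overlapped. Of 15 germ cell markers 8 were tested, and 6 of the 8 were called higher in deficient mice and none lower. Over all genes 2.45% were called higher and 2.48% lower. Another marker was lower without overlap, at -0.97 on the log2 scale, and was called lower when deficient mouse 1 was left out. The 8 summed to 23.4 to 27.6 CPM in deficient mice and 11.2 to 12.7 CPM in wild-type mice. The list was made with earlier results known. A marker near 0 in wild-type mice could pass the filter only through deficient mice, so the 6 of 8 are no test. The 7 markers that were too low to test had at most 6 reads in any mouse, with 3 of them at 0 in all 6.

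Cox7b2 and Cyct, both known from testis and both without overlap between the genotypes, are shown by the 250 bases before their RefSeq start. These are on the minus strand of GRCm38.p6, at chr5:71548206-71548455 for Cox7b2 and chr2:76360454-76360703 for Cyct, printed 5′ to 3′ with CG pairs not marked.
Cox7b2: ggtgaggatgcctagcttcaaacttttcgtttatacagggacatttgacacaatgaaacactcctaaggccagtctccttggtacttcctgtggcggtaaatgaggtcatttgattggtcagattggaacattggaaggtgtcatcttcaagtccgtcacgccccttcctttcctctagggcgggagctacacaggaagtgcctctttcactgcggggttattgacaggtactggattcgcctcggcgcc
Cyct: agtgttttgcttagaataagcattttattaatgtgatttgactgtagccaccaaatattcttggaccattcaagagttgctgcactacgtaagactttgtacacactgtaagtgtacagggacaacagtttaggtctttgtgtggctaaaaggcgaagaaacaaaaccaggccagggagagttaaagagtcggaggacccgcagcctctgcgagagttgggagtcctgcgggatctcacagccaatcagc

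Over these 250 bases Cox7b2 has 9 CG pairs and Cyct 6, against 5 for Cox7b and 23 for Cycs, so the testis forms have no shared difference from their somatic partners in this count. None of the 4 promoters, with 50 bases after the start added, held any of the motifs described next.

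Of the 84 genes 67 had a promoter in the RefSeq table, from 250 bases before to 50 after the start. The motifs searched on both strands were GCGCA, any base and GCGC for the factor NRF1, CCGGAAG for ETS factors such as GABP, and AAGATGGCG for YY1, all factors known to act on nuclear genes of mitochondria, and none of the 3 contains another. A gene was counted if any of its promoters held the letters, so genes with several promoters had more chances. The NRF1 letters were found for 17 of 67 genes, or 25.4%, against 10.4% of 11677 tested genes and 5.19% of all 27025 genes. The ETS letters were found for 16, or 23.9%, against 17.8% and 9.93%, and the YY1 letters for 8, or 11.9%, against 3.09% and 1.64%. By complex, NRF1 letters were found for 7 of 31 genes of complex I, 2 of 3 of complex II, 1 of 5 of complex III, 1 of 13 of complex IV and 6 of 13 of complex V. A match of letters is a description and not a site of binding.

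The NRF1 match is shown for the gene with the highest CPM of each complex whose 60-base window lies before the annotated gene, with the motif in capitals and 25 bases on either side, which left complex III without one. The windows are at chr17:56717677-56717736 (plus strand), chr13:74350304-74350363, chr5:115349041-115349100 and chr11:115420026-115420085 (minus strand), all on GRCm38.p6 from RefSeq.
Ndufa11: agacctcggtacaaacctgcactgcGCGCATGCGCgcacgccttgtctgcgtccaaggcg
Sdha: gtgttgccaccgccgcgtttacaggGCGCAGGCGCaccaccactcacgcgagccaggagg
Cox6a1: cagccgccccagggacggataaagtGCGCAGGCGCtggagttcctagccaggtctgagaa
Atp5h: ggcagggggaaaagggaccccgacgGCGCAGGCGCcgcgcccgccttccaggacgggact

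The RNAs of Nrf1, Gabpa, Yy1 and Ppargc1a were not called, while that of a partner subunit of GABP was. Nrf1 averaged 19.3 ± 1.1 CPM in deficient and 18.7 ± 0.96 CPM in wild-type brain (SD, n = 3 each). Gabpa, the DNA-binding subunit of GABP, had a log2 fold change of -0.06, Yy1 of 0.06 and the coactivator Ppargc1a of -0.10. Of the 19 regulators tested, 2 were lower in deficient mice and none was higher, against 2.48% lower and 2.45% higher of all genes, and 15 had a fold change below 0, against 7525 of all 15127. The mean deviation of the 19 on the log2 scale was 0.00, -0.21 and -0.02 in deficient mice 1, 2 and 3, against 0.06, 0.11 and 0.07 in wild-type mice. The low value is that of deficient mouse 2, the library with the lowest cerebellum markers. Without deficient mouse 2, 12 of the 19 were below 0 and 2 were called lower. In that fit 7604 of all 15287 genes were below 0 and 324 were called lower.

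Gabpb2, a partner subunit of GABP, had 27.4, 20.2 and 30.7 CPM in deficient mice, against 41.4, 47.7 and 43.9 CPM in wild-type mice. It fell by 0.77 ± 0.13 on the log2 scale (SE; edgeR adjusted p = 0.0228), and its exons overlap those of Gm16740 on the opposite strand. Ppargc1b, a coactivator of mitochondrial genes related to Ppargc1a, had 14.5, 11.5 and 13.8 CPM in deficient mice, against 17.2, 18.7 and 19.5 CPM in wild-type mice, a log2 fold change of -0.48 ± 0.10 (SE; edgeR adjusted p = 0.0359). Deficient mouse 2 was the lowest of the 6 mice for both genes. Without it the log2 fold changes were -0.61 and -0.39, with edgeR adjusted p-values of 0.00412 and 0.0385.

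Pdss1, which makes the side chain of ubiquinone with Pdss2, was the only called gene among 11 of ubiquinone synthesis. It had 7.85, 7.18 and 7.37 CPM in deficient mice, against 11.2, 11.9 and 10.7 CPM in wild-type mice, a log2 fold change of -0.59 ± 0.09 (SE; edgeR adjusted p = 0.0187). Ucp2, a carrier of the inner membrane, had 37.9, 34.2 and 38.6 CPM in deficient mice, against 25.3, 29.0 and 26.0 CPM in wild-type mice. It was the only called gene among 17 of mitochondrial stress and antioxidant defence, with a log2 fold change of 0.46 ± 0.07 (SE; edgeR adjusted p = 0.0195). The summed level of 10 microglia markers was higher in the same mice. It came to 252, 284 and 262 CPM in deficient mice, against 237, 225 and 230 CPM in wild-type mice, and 5 of the 10 were higher without overlap, against 14.9% of all genes. Of these 10 markers 1, Siglech, was called higher, against 2.45% of all genes. Its log2 fold change was 0.66 (edgeR adjusted p = 0.0193). Astrocyte markers summed to 5392, 5266 and 5651 CPM in deficient mice, against 4829, 4889 and 5107 CPM in wild-type mice. Of these 9 markers 1 was called higher, against 2.45% of all genes, and 4 had a fold change below 0. Oligodendrocyte markers summed to 7555, 6192 and 5997 CPM in deficient mice, against 8223, 8592 and 7592 CPM in wild-type mice. Of these 10 markers 1 was called lower, against 2.48% of all genes. The part of these cell types in the value of Ucp2 was not tested. The exons of Pdss1 overlap those of Abi1 and those of Ucp2 overlap Dnajb13, in both cases on the opposite strand, so their values are uncertain to that extent. Cyct, Pdss1, Gabpb2, Ppargc1b and Ucp2 all lost their calls when wild-type mouse 1, 2 or 3 was left out, with edgeR adjusted p-values of 0.0529 to 0.145, and Pdss1, Ppargc1b and Ucp2 also without deficient mouse 3, at 0.0523 to 0.0791.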

How the data were processed

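Per the file headers, the table that was deposited gives a raw count for each gene symbol in each of 3 deficient and 3 wild-type mice, not normalized by the authors. Columns of the authors' own comparison were deposited beside them: mean signal, log2 fold change (wild type over deficient, as the counts show), its standard error, a test score and p-value without adjustment. They are used only where named. DESeq2 and the build GRCm38 are named in the submitters' processing notes. Which aligner, counter and annotation were used, and whether strand was, is not given in the sources used here.

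Counts were tested in R 4.3.3 with edgeR 4.0.16: default expression filter (minimum count 10, minimum total 15), scaling by trimmed mean of M-values, quasi-likelihood test on genotype alone, and Benjamini-Hochberg adjustment over 15127 genes at 0.05. Alternatives used DESeq2 1.42.0, limma 3.58.1 (voom), other scalings and filters, the replicate number as a block, offsets for GC content and length, and each mouse left out. The test was tested on simulated data with 200 changed genes, where 7 of 130 calls were of unchanged genes. The labels describe separate mice, 1 library each, so p-values measure the spread between mice. Intervals on counts cover counting error only.

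Positions, lengths and shared words come from GENCODE M21 (GRCm38), by symbol: 83 of the 84 genes matched exactly and Atp5sl through a synonym. The exons of 29 of the 84 overlap another annotated gene, 26 of them on the opposite strand, and without strand such reads cannot be told apart. Promoters are RefSeq's. Protein sequences were not used here.

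The genes and lists were chosen with earlier results of these data known. Genes were named by rule: any called gene, per complex the 3 smallest p-values and the largest fold change, tissue isoforms, core subunits and called genes of the related lists. Cox7a2l, Cox7c, the other low subunits, factors and X-linked genes were named after their values were seen.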

Additional observations from a re-analysis of the deposited data

How the results depend on the processing

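No nuclear oxidative phosphorylation gene passed an adjusted p of 0.05 in any of the 16 other fits. The lowest adjusted p ranged from 0.0689 (Ndufa12, offsets for GC content and length) to 0.274 (without wild-type mouse 2). At 0.1, no gene passed in 7 of the 16 fits, 1 in 7 and 2 in 2, and Cox7b2 ranged from 0.0712 without deficient mouse 2 to 0.274 without wild-type mouse 2. Counts over all genes did vary: 1121 without a filter, 1208 by DESeq2, 1792 at an adjusted p under 0.1, and 44 to 2098 when a mouse was left out (44 without wild-type mouse 1, 2098 without deficient mouse 1). The cause was not tested.

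With the replicate number as a block, 58 genes were called, and 109 when GC and length offsets were added. Deviations of same-numbered mice correlated at -0.06, -0.06 and 0.14, so the numbers were not taken to pair the mice. Under the block, Cyct, Pdss1, Gabpb2, Ppargc1b and Ucp2 had adjusted p-values of 0.0827 to 0.0957 by edgeR. DESeq2 gave Cyct no adjusted p.

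Several small fold changes turned sign. With GC and length offsets Sdhb was at -0.035 and Cox6a1 at -0.037, and with the block added at -0.037 and -0.037. With 1 mouse left out, log2 fold changes ran from -0.015 to 0.040 for Sdhb, -0.026 to 0.11 for Atp5g1, -0.0055 to 0.079 for Cox6b1, -0.092 to 0.47 for Cox8b, -0.80 to 0.15 for Cox4i2, -1.45 to 0.95 for Cox7c, -0.073 to 0.018 for Uqcrc1, -0.16 to 0.088 for Ndufa4l2, -0.058 to 0.0064 for Atp5g3, -0.024 to 0.42 for Cox6b2, -0.050 to 0.0064 for Cox7b and -0.023 to 0.0074 for Ndufs1. With 30- or 75-base words, added after seeing the data, the number of genes with 30% or more shared words changed to 15 or 8.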
